A study of Mus musculus with 4 samples.

Results

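Red cell barcodes are droplets whose RNA was mostly haemoglobin RNA, and the rest of their RNA and the balance of their globin genes are described here in mouse popliteal vessels. They were taken as barcodes with at least 500 gene UMIs of which more than 50% came from genes whose symbol starts with Hba- or Hbb-. A UMI, or unique molecular identifier, tags 1 captured RNA molecule. The rule gave 1043 of 4707 barcodes with at least 500 gene UMIs. Members were thus chosen by globin RNA, and its level is a description here, with no test.

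The samples were from adult WT1xAi9 mice, a cross of WT1GFPCre, which carries EGFP and Cre at the Wt1 locus, with the Cre-dependent reporter Ai9-tdT. All mice were anaesthetised with K/X and received Evans blue dye in the footpads before the vessels were taken. The 2 PLV libraries, replicates 1 and 2, held popliteal lymphatic vessels, each from a separate pool of 2 mice, digested for 30 minutes with collagenase I, Dispase II, DNAse and Liberase. The mixed library held popliteal lymphatic and blood vessels together from 1 pool of 2 mice, digested for 60 minutes with collagenase I and Dispase II alone. Vessel, digestion, mice, run and Cell Ranger version differ together between PLV and mixed and cannot be told apart, and all values per library are values of pooled animals. Xist, the RNA of the inactive X chromosome, stood at 6.54 and 6.104 UMIs per 10000 non-globin UMIs in the other cells of the PLV replicates and had 1 UMI in those of mixed, so the pools differed in it as well. The labels give the cells as vascular cells.

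Haemoglobin of adult mice pairs alpha chains, made from the near-identical genes Hba-a1 and Hba-a2, with beta chains, made from Hbb-bs and Hbb-bt. A red cell loses its nucleus before it enters the blood, so it makes no new RNA there. The youngest circulating red cells, reticulocytes, still hold globin RNA and a small set of other transcripts, and lose them, along with ribosomes and mitochondria, as they mature. Alas2, the fifth marker used to check the label, encodes the red cell form of the first enzyme of haem synthesis.

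The promoters of the 4 adult globin genes and of Alas2 are shown because the results turn on how these genes share the RNA of 1 cell. Each sequence is the 120 bases before the gene's start in RefSeq (GRCm38.p6), 5′ to 3′ along the gene. Capitals mark matches to short motifs, each searched on both strands. The TATA box was searched as ATATAA. The CCAAT and CACCC boxes were searched by the letters of their names, and the site of GATA factors as GATAA.
Hba-a1: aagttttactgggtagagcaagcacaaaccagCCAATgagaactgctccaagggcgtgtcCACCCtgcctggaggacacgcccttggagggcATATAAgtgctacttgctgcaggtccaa
Hba-a2: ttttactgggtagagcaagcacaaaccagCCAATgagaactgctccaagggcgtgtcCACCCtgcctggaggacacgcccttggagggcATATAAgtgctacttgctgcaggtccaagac
Hbb-bs: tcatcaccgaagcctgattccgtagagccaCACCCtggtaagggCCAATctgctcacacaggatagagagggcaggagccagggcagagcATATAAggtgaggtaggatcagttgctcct
Hbb-bt: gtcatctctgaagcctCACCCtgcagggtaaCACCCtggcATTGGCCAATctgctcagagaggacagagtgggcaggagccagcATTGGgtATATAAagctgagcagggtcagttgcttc
Alas2: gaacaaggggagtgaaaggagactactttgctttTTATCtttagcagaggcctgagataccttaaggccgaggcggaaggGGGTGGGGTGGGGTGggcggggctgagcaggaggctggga
The windows lie at chr11:32283552-32283671 (+) for Hba-a1, chr11:32296372-32296491 (+) for Hba-a2, chr7:103827929-103828048 (-) for Hbb-bs, chr7:103813924-103814043 (-) for Hbb-bt and chrX:150547297-150547416 (+) for Alas2. GENCODE M21, on the same build, starts some of these genes at other bases. A TATA box stood 28 to 31 bases before the start in the 4 globin windows. A CCAAT box and a CACCC box were in each of these 4 windows as well. Of 32851 windows of the same length, 94 (0.286%) held all 3 of these motifs, while 4.47% held ATATAA, 21.3% CCAAT and 31.7% CACCC. The Alas2 window held a GATA match, as did 10.5% of windows, and 3 CACCC matches on the other strand. The Hba-a1 and Hba-a2 windows were identical at 95.1% of aligned bases, and the Hbb-bs and Hbb-bt windows at 74.6%. The Hbb-bt window held 2 CACCC matches and 3 CCAAT matches, of which 2 were on the other strand, against 1 of each in the Hbb-bs window.

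Red cell barcodes made up 648 of 2649 barcodes in PLV replicate 1 (24.5%, 95% exact interval 22.8 to 26.1). In PLV replicate 2 they were 176 of 730 (24.1%, interval 21.0 to 27.4), and in the mixed library 219 of 1328 (16.5%, interval 14.5 to 18.6). They held a median of 3275, 3179 and 3052 gene UMIs per barcode and of 50.5, 50 and 40 genes. Globins gave 95.02%, 93.0% and 96.1% of their UMIs, which left 106391, 45292 and 36073 UMIs of other genes in the 3 libraries. Few barcodes were between the extremes: from 5% to 80% globin lay 36, 7 and 16 barcodes. The members nearest the limit had 50.9%, 54.6% and 50.8% globin, and the nearest barcodes outside it had 47.3%, 40.5% and 49.8%. No member barcode of 1 library was a member in another. The deposited PLV tables held only barcodes chosen as cells, while the mixed table held all 896360, which can set the lowest depth seen in each.

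**Figure D1:**
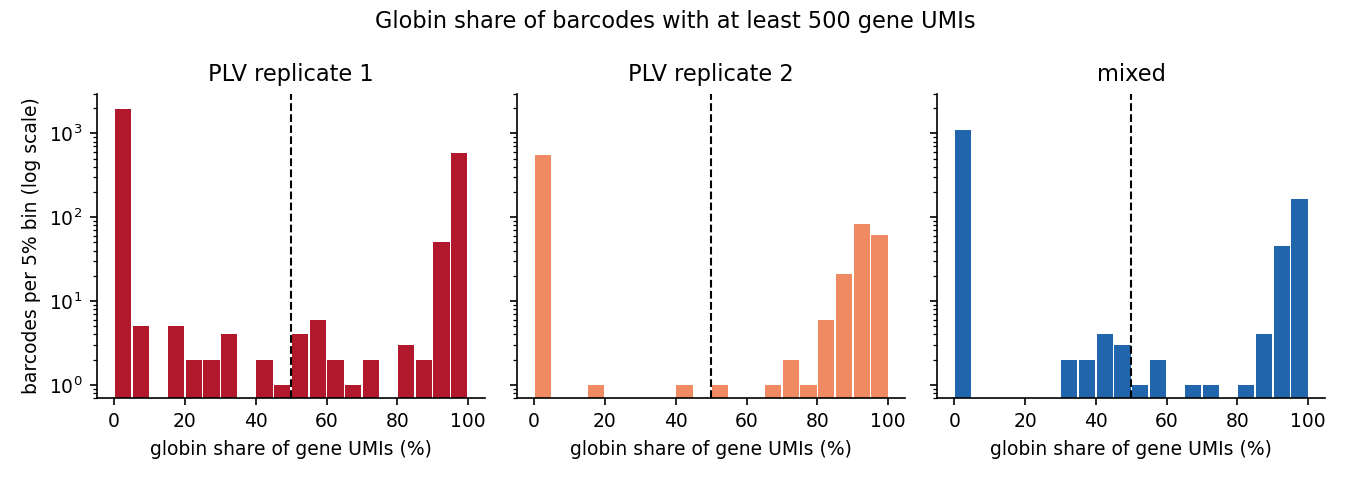
Number of barcodes (log scale) by globin share of gene UMIs, in bins of 5%, for the 3 libraries. The dashed line is the 50% limit; most barcodes lie below 5% or above 80%.

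A small subset stood apart. In PLV replicate 1, 16 members had at least 300 genes (310 to 2318), with globin shares of 50.9% to 81.0%. They held 40.9% of that library's non-globin member UMIs and 1121 of its 1159 UMIs of Malat1, a nuclear RNA. Among the marker lists of other cells, fibroblast genes led in 5 of them, Schwann, muscle and blood endothelial genes in 3 each, and leukocyte and platelet genes in 1 each. The mixed library had 2 such members with 2.38% of its non-globin member UMIs, and PLV replicate 2 had 0 of 176. Counts of called genes and the main shares of non-globin RNA are therefore also given for the 1025 members with fewer than 300 genes.

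Hbb-bs was the most abundant gene in the members of every library. It gave 48.2%, 47.7% and 48.6% of globin UMIs in PLV replicate 1, PLV replicate 2 and mixed. Hba-a1 followed with 24.9%, 25.8% and 24.7%, then Hba-a2 with 18.3%, 19.0% and 18.5%, and Hbb-bt was the least abundant of the adult genes with 8.56%, 7.51% and 8.19%. These are shares of molecules tagged at their 3′ end and were not divided by gene length. The order was the same in the 3 libraries. Embryonic globins were near 0. Hba-x, the embryonic zeta-like chain, had 1, 2 and 0 UMIs, Hbb-y 1 in each library, Hbb-bh1 1, 1 and 0, and Hbb-bh2 0 in all, out of 2028769, 604262 and 895287 globin UMIs. The theta-like genes Hbq1a and Hbq1b, which the rule did not use, had 43, 16 and 33 UMIs and 26, 5 and 14 UMIs.

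Alpha RNA was less abundant than beta RNA in every library. The alpha genes gave 43.2% of alpha plus beta UMIs in PLV replicate 1 (interval 43.2 to 43.3), 44.8% in PLV replicate 2 (44.7 to 44.9) and 43.3% in mixed (43.2 to 43.4), a mean of 43.8 ± 0.901% (SD, n = 3). Beta UMIs were thus 1.31, 1.23 and 1.31 times the alpha UMIs. In the other cells of the same libraries, which hold little globin RNA, the alpha share was 40.7%, 40.5% and 42.2%. Members were higher in 3 of 3 libraries, by 2.66 percentage points on average (SD 1.63), a description with no test, since globin UMIs chose both kinds of barcode. In PLV replicate 2, 1 barcode held 591 of the 759 Hba-a1 UMIs of the other cells, so that share rests largely on it. Without the most globin-rich barcode of each library the other cells had 42.5%, 38.9% and 41.1%, and members were still higher in 3 of 3 (mean difference 2.97, SD 2.67). Among mixed droplets, those under 50 gene UMIs gauge free RNA and had an alpha share of 42.5%.

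Single barcodes varied more than counting error in the alpha share. From the first to the third quartile, members spanned 40.3% to 45.9% in PLV replicate 1, 41.7% to 48.9% in PLV replicate 2 and 40.2% to 46.4% in mixed. The extremes were 5.97% and 87.0%, both in PLV replicate 1. Alpha RNA outnumbered beta RNA in 37 of 648, 35 of 176 and 27 of 219 members. The variance between barcodes was 27.1, 33.9 and 38.1 times that of binomial counting.

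The 2 alpha genes kept nearly the same ratio from barcode to barcode. Hba-a2 gave 42.3%, 42.4% and 42.8% of adult alpha UMIs (mean 42.5 ± 0.284%, SD, n = 3), with variances 4.24, 4.30 and 3.88 times the binomial one. The other cells had 40.2%, 44.1% and 41.7%, a difference of 0.527 percentage points that was positive in 2 of 3 libraries. Without the most globin-rich barcode of each library the other cells had 40.6%, 41.3% and 41.7%, and the difference was 1.33 points (SD 0.310), positive in 3 of 3. The first transcripts of Hba-a1 and Hba-a2 in GENCODE M21 share an identical run of 415 bases, and reads within it cannot be assigned to 1 gene, so the level of this ratio is uncertain. The same holds, with a run of 430 bases, for Hbb-bs and Hbb-bt.

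Hbb-bt varied most. It gave 15.1%, 13.6% and 14.4% of adult beta UMIs over all members (mean 14.4 ± 0.739%, SD, n = 3), but single members ranged from 0.915% to 26.1% in PLV replicate 1, from 0% to 28.2% in PLV replicate 2 and from 0% to 34.0% in mixed. The variance between barcodes was 48.2, 80.3 and 101.3 times the binomial one. Medians of the per-barcode shares were 14.7%, 7.07% and 12.2%, so the typical barcode differed more between libraries than the sums did. Below 5% Hbb-bt were 102 of 648, 77 of 176 and 65 of 219 members, and at 15% or above were 311, 51 and 78. In the other cells Hbb-bt was 11.3%, 4.61% and 11.9% of beta UMIs, below the members in 3 of 3 libraries by 5.10 percentage points on average (SD 3.43). This direction rests on 1 barcode in PLV replicate 2, with 2618 globin UMIs. Without the most globin-rich barcode of each library, an alternative chosen after the data were seen, the other cells had 8.53%, 15.1% and 11.9%, and members were higher in 2 of 3 libraries (mean difference 2.52, SD 4.03).

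**Figure D2:**
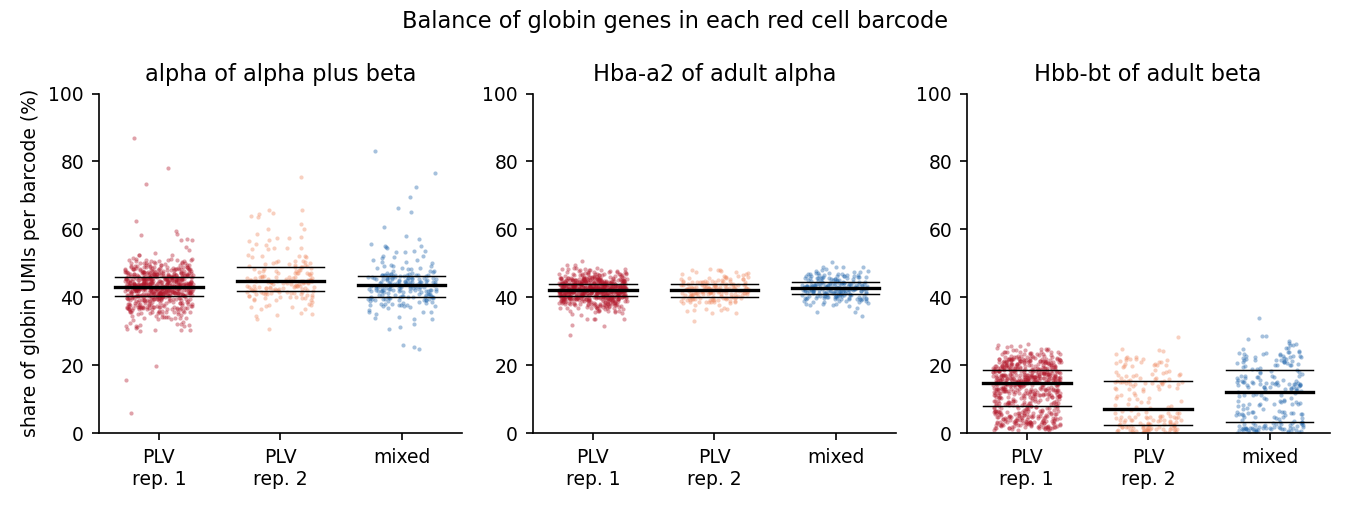
Share of globin UMIs per red cell barcode (1 point each) for the alpha genes, for Hba-a2 within alpha and for Hbb-bt within beta, by library. Thick lines are medians and thin lines quartiles. Hba-a2 shares cluster near 42%, while Hbb-bt shares spread from near 0 to above 25% in every library.

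Members with more UMIs had more Hbb-bt relative to Hbb-bs. Members under 300 genes were split into 3 equal parts by gene UMIs within each library. The Hbb-bt share of beta UMIs was 8.68%, 13.9% and 18.2% from the lowest to the highest part in PLV replicate 1. It was 2.57%, 9.33% and 17.4% in PLV replicate 2, and 8.17%, 12.2% and 16.0% in mixed. The highest part exceeded the lowest in 3 of 3 libraries, by 10.7 percentage points on average (SD 3.67). This is a description with no test, since globin UMIs chose the members and make up most of their depth. Hba-a2 rose by 1.02 points of alpha UMIs over the same split (SD 0.538). The alpha share changed by 1.22, -4.69 and -2.01 points, in no common direction. Over single barcodes the Spearman correlation of the Hbb-bt share with gene UMIs was 0.62 (629 barcodes), 0.79 (174) and 0.40 (209). These barcodes share a library, and both measures come from the same UMIs. The lowest part of the mixed library, at 8.17%, lay below the 12.6% of its droplets under 50 UMIs.

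**Figure D3:**
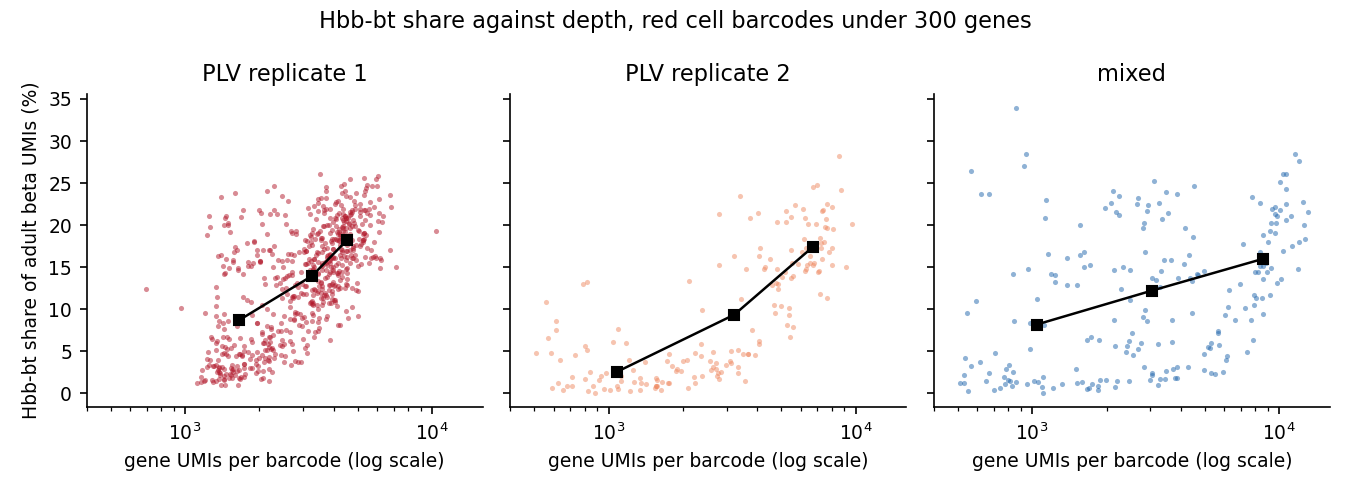
Hbb-bt share of adult beta UMIs against gene UMIs (log scale) for each member under 300 genes. Black squares join the share of summed UMIs at the median depth of each of 3 equal parts by depth, which rises in the 3 libraries. Shallow barcodes crowd near 0, and a scatter of shallow barcodes reaches above 20%.

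Other RNA also moved with depth in these 1025 members. With 3 genes that overlap ribosomal RNA sequence left out, genes of the erythroid lists rose from 26.0% to 42.5% of non-globin UMIs between the lowest and highest part in PLV replicate 1, from 15.04% to 43.2% in PLV replicate 2 and from 20.7% to 45.4% in mixed. On the same denominator mitochondrial genes went the other way, from 9.43% to 3.35%, from 5.94% to 2.37% and from 10.5% to 1.33%. Ribosomal protein genes were lower in the highest part too, by 9.56 percentage points on average (SD 1.37, n = 3). Each of these differences had 1 direction in 3 of 3 libraries and an exact sign-flip permutation p of 0.25, the smallest possible. Over single barcodes the Hbb-bt share and the erythroid share correlated at 0.48, 0.68 and 0.37 (Spearman), and both also followed depth. The mitochondrial share of single barcodes hardly did, with Spearman correlations with gene UMIs of -0.16, -0.01 and -0.03. The part of free RNA in the shallow barcodes was not tested.

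The libraries differed most in 1 RNA. Gm42418, annotated as a lincRNA at chr17:39846958-39848788 (+), lies in a stretch known to match ribosomal RNA and overlaps the antisense gene AY036118 in full. It gave 2.95% of non-globin member UMIs in PLV replicate 1, 54.1% in PLV replicate 2 and 45.8% in mixed. In the other cells of the same libraries it gave 0.638%, 6.55% and 6.84%, so members were higher in each library and PLV replicate 1 was lowest in both kinds of barcode. Mixed droplets under 50 UMIs had 39.99%. Per member the median was 4, 85 and 61 UMIs of Gm42418. Together with AY036118 and with Lars2, a mitochondrial leucyl-tRNA synthetase gene whose reads can hold ribosomal RNA, it took 3.15%, 57.6% and 48.6% of non-globin member UMIs. What set this RNA apart in PLV replicate 1 was not tested, and the shares of classes below are given with and without these 3 genes.

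Red cell genes made up much of the remaining RNA, second to the genes that overlap ribosomal RNA in PLV replicate 2 and mixed. The 6 erythroid lists together (98 genes in the tables) gave 22.9% of non-globin member UMIs in PLV replicate 1 (interval 22.7 to 23.2), 15.9% in PLV replicate 2 and 19.9% in mixed, against 1.30%, 1.16% and 1.58% in other cells. Without the 3 genes that overlap ribosomal RNA, and in members under 300 genes, the shares were 38.7%, 37.6% and 40.2%, a narrow range over libraries that had differed by those genes and barcodes. Ribosomal protein genes gave 10.4%, 4.27% and 6.15%, and 10.8%, 10.1% and 12.0% without the 3 genes. Mitochondrial genes gave 4.48%, 1.43% and 1.43%, and 4.63%, 3.37% and 2.78% without them. Nuclear RNA was scarce: the list of Malat1, Xist and other nuclear transcripts gave 1.14%, 0.0420% and 0.0693%, against 2.41% to 2.79% in other cells. Under 300 genes the share in PLV replicate 1 was 0.0716%. Malat1 had 38 UMIs in those 632 barcodes, 18 in the 176 of PLV replicate 2 and 11 in the 217 of mixed. The tdTomato reporter had 1, 0 and 0 member UMIs.

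**Figure D4:**
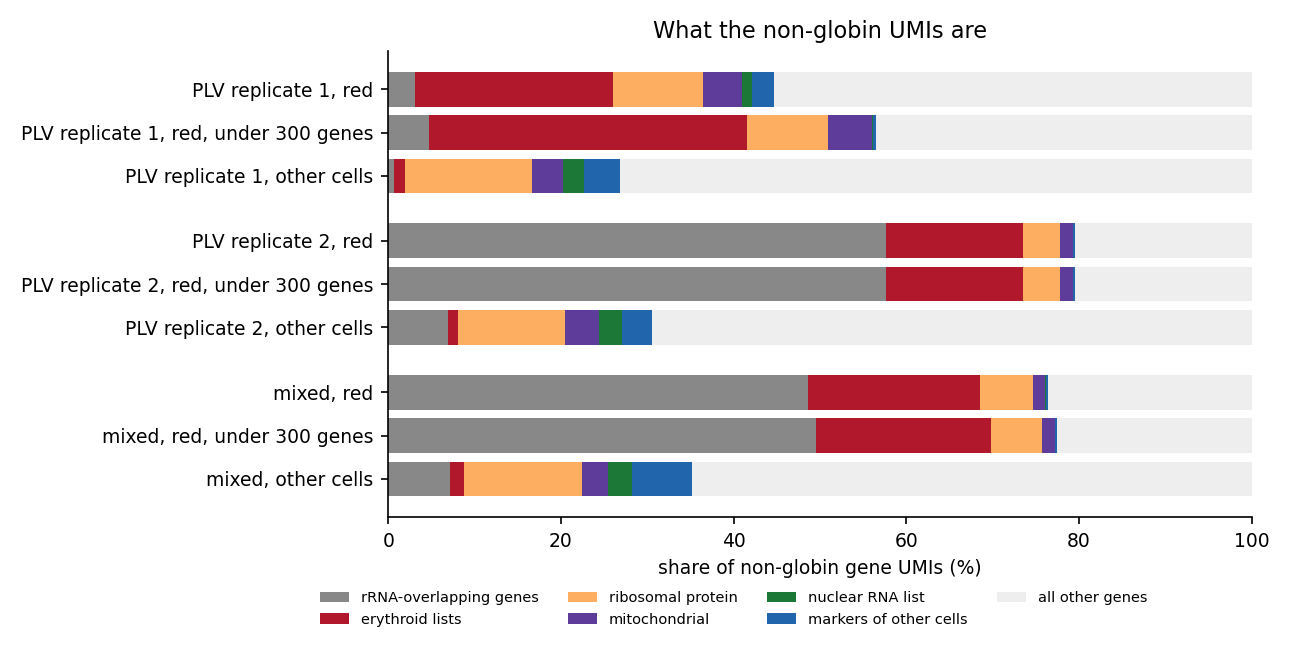
Share of non-globin gene UMIs by class in red cell barcodes, in those under 300 genes and in other cells of each library. Red bars (erythroid lists) are wide in red cell barcodes and thin in other cells, and grey bars (genes that overlap ribosomal RNA) exceed 45% of member UMIs in PLV replicate 2 and mixed only.

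Non-globin RNA of members was then compared with that of other cells, as summed UMIs per library with the library as a block. The other cells had at least 300 genes, at most 15% mitochondrial and at most 20% globin UMIs (1919, 519 and 997 barcodes). Globin genes were left out of the counts and totals. edgeR's quasi-likelihood test with Benjamini-Hochberg adjustment at 0.05 tested 10312 genes. It called 256 genes (2.48%), 236 higher in members (2.29%) and 20 lower (0.194%), and the median log2 fold change of all tested genes was -0.91. Scaling without TMM factors lowered that median by 1.08 and gave 132 higher and 58 lower genes, and DESeq2's size factors lowered it by 0.25 and gave 253 and 68. DESeq2 itself called 235 genes higher, 190 of them shared with edgeR, and 247 lower. Restricted to members under 300 genes, edgeR called 317 genes higher (3.16% of 10027), which included 227 of the 236, and 246 lower (2.45%), or 5.61% together, with a median log2 fold change over all tested genes of -8.01. With Gm42418, AY036118 and Lars2 also left out, 312 were higher (3.12%) and 243 lower (2.43%), or 5.56% together. Of the erythroid lists 77 genes were tested; 41 were higher and 36 did not pass, with a median log2 fold change of 3.70. Values below are UMIs per 10000 non-globin UMIs in PLV replicate 1, PLV replicate 2 and mixed, over all members. SE below is the absolute log2 fold change divided by the square root of the test's F statistic. It is not a spread over libraries. In PLV replicate 1 they depend on the 16 members with at least 300 genes. Under 300 genes the levels there were 1.15 (Fth1) to 1.69 (Fam210b) times as high for the 37 named erythroid list genes that passed as higher, with Alas2 at 676, Bpgm at 298 and Tent5c at 399. The levels of PLV replicate 2 and mixed depend on Gm42418, AY036118 and Lars2: without these 3 genes in the denominator member levels of all other genes are 1.03, 2.36 and 1.95 times as high in PLV replicate 1, PLV replicate 2 and mixed, and those of other cells 1.01, 1.07 and 1.08 times. Orders of levels between libraries are therefore not read from these values.

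The first and the last enzyme of haem synthesis were higher in members. Alas2 stood at 410, 275 and 243 in members against 0.0188, 0.0115 and 0.00128 in other cells (log2 fold change 16.11, SE 0.29). The 3 member sums held 4363, 1247 and 878 UMIs and the other cells 18, 4 and 1. Fech, which inserts iron into the ring, stood at 72.9, 53.9 and 35.8 (8.30, SE 0.45, adjusted p = 1.17e-73). Slc25a37, the mitochondrial iron importer, stood at 88.5, 47.5 and 36.04 (9.89, SE 0.47), and Glrx5, of iron-sulphur cluster assembly, at 10.8, 8.17 and 18.3 (5.17, SE 0.65). Enzymes between them had too few UMIs to compare: Alad had 1 in PLV replicate 1 (0.0940 per 10000 against 0.105 in other cells) and 0 elsewhere, and Uros had 0 in all, at levels of 0.0205 to 0.0375 in other cells. Lower levels of them in members were not detectable at this depth. Urod had 9, 1 and 1, at 0.846, 0.221 and 0.277 per 10000 against 0.318, 0.165 and 0.284. It did not pass over all members and passed under 300 genes (2.93, SE 0.76, adjusted p = 0.00347 in edgeR). Of 12 haem genes tested, 4 were higher and 8 did not pass (5 and 7 under 300 genes), and the list's median was 1.04 against -0.91 for all genes.

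Among iron genes, the ferritin light chain Ftl1 was higher at 114, 95.4 and 253 against 7.66, 7.54 and 12.2 (log2 fold change 5.06, SE 0.24). Ncoa4, the receptor that delivers ferritin for breakdown, stood at 27.4, 19.0 and 18.0 against 0.384 to 0.462 (6.69, SE 0.58). Fth1, the heavy chain, passed (1.19, SE 0.28, adjusted p = 0.001 in edgeR), but its levels of 57.9, 34.2 and 83.4 in members against 52.4, 40.9 and 62.3 in other cells overlapped. Under 300 genes and without Gm42418, AY036118 and Lars2 in the denominator they did not overlap, at 69.6, 80.8 and 168 against 52.8, 43.9 and 67.1. Without TMM factors the log2 fold change of Fth1 was 0.09 and did not pass. The transferrin receptor Tfrc, which brings iron into growing red cells, had 2, 1 and 0 UMIs. Of 8 iron genes tested, 3 were higher and 5 did not pass (4 and 4 under 300 genes), with a median log2 fold change of 1.23.

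Membrane and skeleton genes included some with almost no RNA elsewhere. Slc4a1, the anion exchanger band 3, had 84, 32 and 11 UMIs in members and 1, 0 and 0 in other cells, a summed ratio of 14119 (95% interval 2489 to 562001, counting error only). Tspo2 had 16, 3 and 12 UMIs and 0 in all other cells, at least 1149-fold higher when 3 counts stand for 0 over the group. Epb41, protein 4.1 of the membrane skeleton, was the most abundant of the list at 113, 87.9 and 57.1 against 0.548 to 0.808 (log2 fold change 8.03, SE 0.37). Sptb, a beta spectrin gene, stood lower at 1.13, 0.442 and 0.554 against 0.0755 to 0.140. Of 16 genes tested, 9 were higher and 7 did not pass, also under 300 genes, with a median of 3.90.

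Enzymes of red cell metabolism were higher in 7 of 12 tested genes, and 5 did not pass (median log2 fold change 4.19); under 300 genes 8 were higher and 4 did not pass. Bpgm, which makes the 2,3-bisphosphoglycerate that lowers oxygen affinity, stood at 181, 125 and 176 against 0.0960 to 0.136 (11.44, SE 0.32). Glutathione peroxidase Gpx1 stood at 83.7, 72.6 and 49.6 against 3.81 to 4.51 (5.13, SE 0.35). Prdx2, a peroxiredoxin, stood at 16.2, 12.1 and 28.3, catalase (Cat) at 18.8, 10.8 and 4.44, and Car2, a carbonic anhydrase, at 6.67, 8.61 and 8.59 against 0.0188 to 0.0404. The other carbonic anhydrase listed, Car1, had 0 UMIs in members and in other cells.

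Genes of clearance and late maturation formed the largest group, with 16 of 22 tested genes higher, 6 not passing and a median log2 fold change of 4.94. Under 300 genes 18 were higher, 1 (Btg2) was lower and 3 did not pass. Mkrn1, a ubiquitin ligase, stood at 201, 129 and 197 against 0.372 to 0.527 (9.72, SE 0.29). Ube2l6, a conjugating enzyme for ubiquitin and ISG15, stood at 146, 73.1 and 103 (10.25, SE 0.37), and Ube2o, an enzyme that marks ribosomal proteins for removal in reticulocytes, at 30.3, 22.1 and 16.1 (7.83, SE 0.60). Bnip3l, the receptor that directs mitochondria to autophagy in reticulocytes, stood at 113, 70.9 and 84.3 against 1.57 to 1.94 (6.76, SE 0.34). Tent5c, a poly(A) polymerase, stood at 243, 140 and 83.4 against 0.149, 0.115 and 0.600 (10.52, SE 0.33). Its ratio of members to other cells differed widely between libraries, at 1631, 1216 and 139. Isg20, an exonuclease, stood at 27.5, 31.1 and 54.6 (10.48, SE 0.55). In each of these 6 genes every member sum lay above every sum of other cells.

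The theta globin genes had 1, 0 and 0 UMIs each in other cells. The ratio was 10228 for Hbq1a (interval 1791 to 408314) and 5003 for Hbq1b (interval 853 to 201934). Rec114, named by the size of its change and best known from meiosis, stood at 19.8, 13.9 and 18.9 against 0.00729 to 0.0102 (log2 fold change 11.99, SE 0.78). Gm10371, Fam220a and Ube2c were named by the same rule, at 11.08, 10.23 and 9.91. A second gene of the symbol Fam220a, ENSMUSG00000083012, did not pass, and the values are those of ENSMUSG00000118332. Among regulators of red cell formation Gata1 had 1, 0 and 0 UMIs, Klf1 0 in all and Tal1 1 in each, while Lmo2 had 41, 17 and 8. Of 7 regulators tested, Hemgn (12 UMIs, ratio 445, interval 120 to 2456) and Lmo2 (2.85, SE 0.85, adjusted p = 0.0327 in edgeR) were higher and 5 did not pass. Lmo2 did not pass in 6 alternatives, among them the fits without PLV replicate 2 and without mixed.

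**Figure D5:**
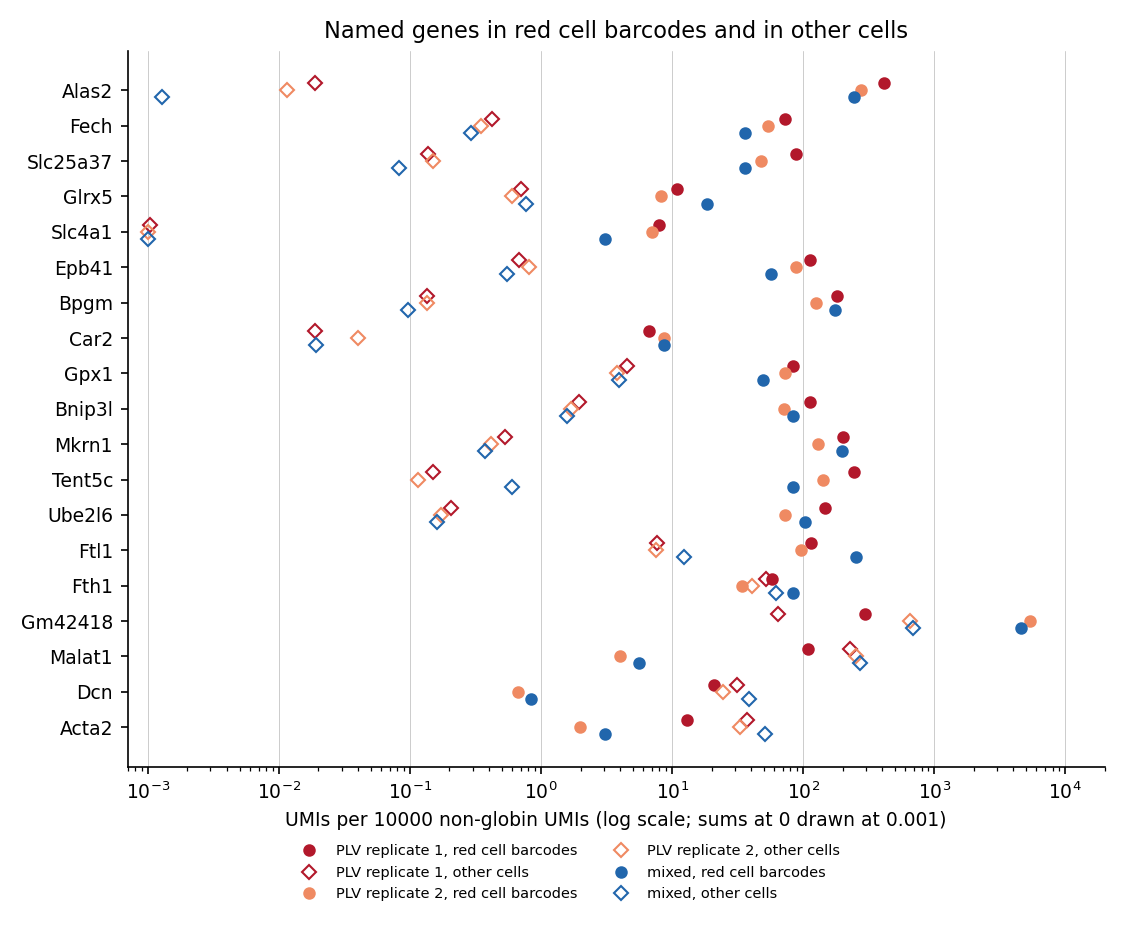
UMIs per 10000 non-globin UMIs (log scale) of named genes in red cell barcodes (filled circles) and in other cells (open diamonds) of the 3 libraries; sums at 0 are drawn at 0.001. From Alas2 to Ftl1 every circle lies right of every diamond, for Fth1 they overlap on this denominator, which includes the genes that overlap ribosomal RNA, and Malat1, Dcn and Acta2 lie left.

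General transcripts were also among the most abundant genes. The 15 most abundant non-globin genes took 24.3%, 71.3% and 66.4% of non-globin member UMIs. Gm42418 alone gave 2.95%, 54.1% and 45.8%, most of the total in PLV replicate 2 and mixed, and Lars2 was among the 15 as well. These totals therefore do not measure general transcripts. Apart from the genes above, the 15 held Oaz1 (an antizyme of polyamine control), Sec61g (a subunit of the translocation channel), Rpl41 and Tpt1. They also held Ubb (a ubiquitin gene) and Pabpc1 (the poly(A) binding protein). The general genes from Oaz1 to Pabpc1 had log2 fold changes over other cells from 2.62 (Rpl41) to 5.85 (Sec61g). These fold changes include the TMM factors and exceed the ratios of levels. As levels, Rpl41 was 3.01, 2.56 and 3.17 times that of other cells, and Sec61g 28.1, 28.9 and 24.8 times.

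The 20 genes lower in members included Malat1 and 9 marker genes of muscle and fibroblasts. Malat1 stood at 109, 3.97 and 5.54 against 228, 252 and 273 (log2 fold change -3.25, SE 0.28, adjusted p = 1.3e-29 in edgeR). Col3a1, a fibroblast collagen, stood at 8.93, 0.221 and 1.66 against 20.4, 9.83 and 84.1 (-2.70, SE 0.56), and Tagln, of smooth muscle, at 7.43, 0.883 and 0.832 against 19.8, 19.1 and 36.4 (-2.44, SE 0.59). The 16 members of PLV replicate 1 with at least 300 genes carried most of these levels: under 300 genes Malat1 stood at 6.04 there, Col3a1 at 1.11 and Tagln at 0.477. The log2 fold changes under 300 genes were -4.35, -3.74 and -3.61, less negative than the median of all tested genes in that fit (-8.01). Of the nuclear RNA list Malat1 alone passed, and 4 tested genes did not. The rest of the 10 most negative were Gsn, Dcn, Col1a2, Sparc, Igfbp5, Col1a1 and Myh11, from -2.62 to -2.33. Without PLV replicate 2, and likewise without mixed, Malat1 was the 1 gene that still passed as lower, while 201 genes passed without PLV replicate 1. The 8 marker lists of other cells (74 symbols, 75 gene IDs) gave 2.51%, 0.179% and 0.280% of non-globin member UMIs, and 0.393% in PLV replicate 1 under 300 genes, against 3.57% to 6.93% in other cells. Of 65 of their genes tested, 9 were lower, 55 did not pass and 1, S100a8, was higher. The platelet list alone gave a larger share in members than in other cells of PLV replicate 1, at 0.0592% (63 UMIs) and 0.0429% under 300 genes (27 UMIs) against 0.0249%, but 0.00662% against 0.00826% in PLV replicate 2 and 0.00554% against 0.00626% in mixed, and its 3 tested genes did not pass in edgeR. S100a8, a neutrophil gene, had 26, 0 and 0 member UMIs. All 26 lay in members with at least 300 genes. The part of RNA from other cells in the member values was not tested.

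Red cell barcodes of the PLV libraries were last compared with those of the mixed library. Of 488 genes tested by edgeR, 0 passed (0%), 23 had an unadjusted p under 0.05, and DESeq2 passed 0 of 9103, with 7 at an unadjusted p under 0.05. The fit has 2 samples against 1 and takes the spread of the lone mixed sample from the PLV pair. When members were held under 300 genes and Gm42418, AY036118 and Lars2 were left out, an alternative chosen after the data were seen, 23 of 270 genes passed (8.52%), 14 higher in PLV (5.19%) and 9 lower (3.33%). With 1 mixed library and a fit chosen after the planned one passed 0 genes, this count is no evidence of a difference between the vessels, and the genes named next are described by their levels alone.

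In that fit Sec61a1, a channel subunit of the endoplasmic reticulum, stood at 13.5 and 61.5 per 10000 in PLV replicates 1 and 2 and at 1.69 in mixed, where the planned fit had given an adjusted p of 0.195 in edgeR. The PLV replicates themselves differed widely. In other cells Sec61a1 stood at 1.13, 2.10 and 0.711, in the same order. Dcaf12, an adaptor of a ubiquitin ligase, stood at 58.1, 53.7 and 16.9, and Tent5c at 419, 332 and 169. Catalase RNA stood at 31.7, 25.5 and 9.0. Both ferritin chains had their highest level in mixed, with Ftl1 at 190, 225 and 511 and Fth1 at 69.6, 80.8 and 168, as had Ubb at 88.1, 158 and 299. For 21 of the 23 genes both PLV values of the other cells lay on the same side of the mixed value as in members. The exceptions were Tent5c and mt-Atp6. Whether these differences belong to red cells or to the libraries was not tested.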

How the data were processed

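Single-cell RNA counts were taken from 2 PLV libraries and 1 mixed library of mouse popliteal vessels. The deposited values were raw UMI counts per gene and barcode, made by the authors with Cell Ranger (version 6.1.2 for PLV and 4 for mixed, per the file headers). Cell Ranger, Seurat and GRCm38 are named in the submitters' processing notes, and whether introns were counted is not given in the sources used here. The hashtag counts were not used.

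The members and gene lists were chosen with earlier results of these data known. Members followed the rule on globin share, and no doublet caller was run on them. Library totals were 11847777, 4155898 and 10099112 gene UMIs. Intervals are 95% exact (Clopper-Pearson) and cover counting error only.

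Counts were summed per library and kind of barcode, without the 8 genes starting with Hba- or Hbb-. They were tested with edgeR 4.0.16 (quasi-likelihood, TMM, filterByExpr, Benjamini-Hochberg) in R 4.3.3, and DESeq2 1.42.0 was an alternative. On simulated counts with 200 genes changed 8-fold, edgeR recovered 100% for members against other cells (9424 genes, 6.54% false calls) and 80.5% for PLV against mixed (658 genes, 3.01% false calls). The simulation gave every sum the same profile with a fixed dispersion and changed only genes with enough expected UMIs. It held no differences between libraries, so these rates do not measure power in the real counts. Shares of non-globin RNA by depth within members were compared by exact sign-flip tests over 3 libraries. The same test was planned for the globin balance against other cells and is not used, since globin chose both. It is not used for globin shares by depth either, since globin UMIs chose the members and make up most of their depth.

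Named genes were the marker genes and gauges, the 15 largest and 10 most negative changes past the threshold with at least 10 UMIs in each library's sum (of members and of other cells, respectively), the 15 most abundant, list genes with at least 10 member UMIs and, for PLV against mixed, the 10 smallest p-values past the threshold in each direction. Alternatives covered the globin limit, depth, gene number, comparison cells, scaling, filter, block and each library left out. Promoters and positions come from RefSeq (GRCm38.p6) and GENCODE M21. Ahsp and Hbb-bh0 were not analysed here, and some genes that the rule names are not reported here.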

Additional observations from a re-analysis of the deposited data

How the results depend on the processing

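Over the alternatives run, 3 libraries limit every exact test of shares to p = 0.25. Members hold a median of 80 to 162.5 non-globin UMIs, so rare transcripts can be missed in single barcodes. Sums of members per library held 36073 to 106391 non-globin UMIs, and transcripts with few UMIs in them stay uncertain. The count of genes higher in members moved beyond 1.5 times only without TMM factors (132), and it was 164 to 178 with 1 library left out. The count of lower genes, 20 in the main result, was less stable. It was 247 in DESeq2, 68 with its size factors, 58 without TMM factors and 44 with no replicate block. By member limits it was 249 above 80% globin, 32 above 40% globin and 246 under 300 genes. It was 243 when Gm42418, AY036118 and Lars2 were left out as well, and 1 to 201 with 1 library left out. The cause of these shifts was not tested. For PLV against mixed, no filter gave 2 genes higher in PLV, leaving out the 3 ribosomal RNA genes gave 1, and doing so under 300 genes gave 14 higher and 9 lower. The mean Hbb-bt share was 11.3% as a median over barcodes. The mean ribosomal protein share rose to 10.9% and the erythroid share to 33.3% without those 3 genes in the denominator, and the erythroid share was 24.6% above 80% globin and 24.4% under 300 genes. Directions turned for 6 named genes that had not passed: Mgst3 (-0.47 without TMM factors, -0.45 to 1.11 with 1 library left out), Rgs5 (0.0036 with no replicate block, -1.56 to 0.14 with 1 library left out), Scn7a (0.21 with no replicate block, -11.06 to 0.32 with 1 library left out, and 0.17 without mixed), Add1 (0.046 above 40% globin), Nrgn (-7.57 to 1.83 with 1 library left out) and Mbp (0.46 with no replicate block). Of 1726 values of named genes under alternatives, 1542 kept their direction and side of the threshold, 60 lost their call, 114 gained one and 10 turned. The fits and shares without Gm42418, AY036118 and Lars2, the class shares with 1 library left out, and the balance without the most globin-rich other cells were chosen after seeing the data. For PLV against mixed no paired analysis was possible, because the 2 groups share only replicate number 1.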
